A study of Mus musculus with 6 samples.

Results

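The Id genes, Id1, Id2, Id3 and Id4, were examined across 6 RNA sequencing libraries of sorted progenitor cells from mouse forebrain at the embryonic stage E12.5. The members were taken by gene symbol. Each of the 4 symbols had 1 row among the 52636 genes of the count table, and all 4 passed the filter on low counts, which left 16869 genes. Cells carrying the surface protein Prominin1 were sorted from dissociated forebrains and are labelled as cortical radial glia, the progenitors of cortical neurons. All embryos, mutants and controls alike, were heterozygous for a floxed allele at both BMP-Smad genes (Smad1wt/fl;Smad5wt/fl). The mutants, called SmadNes, had in addition Nestin:Cre+/0, a Cre recombinase driven by the Nestin promoter, which is active in neural progenitors, and their control littermates had Nestin:Cre0/0, that is, no Cre. At most 1 of the 2 copies of each gene could be deleted in the mutants, and an effect of Cre itself cannot be told apart from that of the deletion. All embryos were on mixed CD1, 129/ola and C57BL6 backgrounds. Each genotype had 3 pools of cells, named SF3, SF4 and SF5_6 in mutants and controls alike, so that each name holds 1 control and 1 SmadNes library. The labels say that pairs were selected for RNA integrity. The number of embryos behind a pool is not among them.

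Id proteins are short helix-loop-helix proteins without the basic region that binds DNA. They pair with E proteins, the common partners of the basic helix-loop-helix (bHLH) activators, and so keep proneural factors such as Neurog2 from acting on their targets. Bone morphogenetic proteins (BMPs) act through the transcription factors Smad1, Smad5 and Smad9, and Id1, Id2 and Id3 are widely used as readouts of that signal. In the developing forebrain, Id1 and Id3 are known from the dorsal midline and from blood vessels, Id4 from dividing progenitors and Id2 from progenitors and young neurons.

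Totals of 32997423 to 40744672 expected counts per library were deposited, and the Id genes drew between 200 (Id1, control SF3) and 17305 (Id4, control SF4) of them. Levels are given as CPM, the count over the library's total scaled by TMM. The floxed genes did not have lower counts in the libraries labelled SmadNes. Smad5 stood at 290, 300 and 287 CPM in control SF3, SF4 and SF5_6 and at 388, 411 and 373 CPM in the mutant libraries, and Smad1 at 72.7, 77.8 and 76.1 against 86.9, 92.9 and 85.7 CPM. A count over the whole gene does not check the deletion, so each direction below rests on the labels. The sort marker Prom1 stood at 106 to 132 CPM, and the radial glia genes Vim and Nes at 665 to 833 and 384 to 566 CPM. Genes of young neurons were also abundant, with Dcx at 935 to 1490 CPM and Map2 at 1030 to 1200 CPM, so the sorted pools held neuronal transcripts beside those of radial glia. In such bulk samples fewer cells of a type and less RNA per cell cannot be told apart.

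The 4 genes lie apart in the mouse genome (GRCm38). Id1 (ENSMUSG00000042745.9) is on chromosome 2 from 152736251 to 152737410, and Id3 (ENSMUSG00000007872.3) on chromosome 4 from 136143497 to 136145755, both on the plus strand. Id2 (ENSMUSG00000020644.9) is on the minus strand of chromosome 12 from 25093799 to 25097140. Id4 (ENSMUSG00000021379.2) is on the plus strand of chromosome 13 from 48261228 to 48266026. Its start is overlapped on the other strand by A330033J07Rik and Gm49291, which had 1 to 7 and 2 to 12 counts per library against 11166 to 17305 counts of Id4.

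Promoter sequences were at hand for Id2, Id3 and Id4 from RefSeq (GRCm38.p6), and not for Id1. They are shown because the 3 genes moved in different ways between the pools, as described further on. The 250 bases before each RefSeq start were searched on both strands for GGCGCC and GTCTAGAC (SMAD motifs), CANNTG (the E-box bound by bHLH proteins), GTGGGAA (the motif of the Notch effector RBPJ) and GGGCGG (a GC box). Capitals mark every match, and adjoining matches run together. Of Id2, only the 89 bases outside annotated exons are printed (chr12:25096254-25096342, minus strand), which lie in an intron of the longest annotated transcript, and the GC box of Id2 falls in the part not printed. Of Id3, whose window lies wholly within an annotated exon, 30 bases are printed (chr4:136143718-136143747, plus strand). Of Id4, all 250 bases are printed (chr13:48260866-48261115, plus strand).
Id2: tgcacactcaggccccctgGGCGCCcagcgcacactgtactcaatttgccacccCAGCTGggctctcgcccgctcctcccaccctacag
Id3: gcggtgcccaGGGCGGGCGGgggtggaccc
Id4: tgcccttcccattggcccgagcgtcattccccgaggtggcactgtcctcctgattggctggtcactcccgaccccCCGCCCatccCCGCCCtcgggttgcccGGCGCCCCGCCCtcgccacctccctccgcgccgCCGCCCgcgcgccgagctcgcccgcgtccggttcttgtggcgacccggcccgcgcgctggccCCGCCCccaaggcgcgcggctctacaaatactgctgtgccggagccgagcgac

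The SMAD motif GGCGCC occurred once in the window of Id2, once in that of Id4 and not in that of Id3, against 9.59% of 32851 promoter windows of the same length that hold it. GC boxes numbered 5 in Id4, 2 overlapping ones in Id3 and 1 in Id2, and 32.7% of all windows hold at least 1. The window of Id2 also held 1 E-box, a motif found in 66.2% of windows. No window of the 3 genes held GTCTAGAC (0.167% of all windows) or GTGGGAA (5.42%). The Id4 window was 75.6% G and C, those of Id2 and Id3 62.8%, and the median window 52.4%. These are matches of letters, and enhancers outside the windows were not searched.

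Id4 was the main Id transcript of these cells. Levels of different genes were compared as CPM per kilobase of annotated exon. In controls Id4 stood at 97.3 ± 13.8, Id2 at 29.5 ± 8.14, Id3 at 15 ± 12.3 and Id1 at 8.2 ± 5.16 CPM per kb (SD, n = 3). In SmadNes the same levels were 106 ± 13.1, 26.0 ± 6.04, 11.9 ± 6.53 and 6.66 ± 2.58 CPM per kb. The Id4 libraries, at 83.9 to 121 CPM per kb, did not overlap those of any other Id gene. Id2 (19.4 to 37.2), Id3 (7.61 to 29.2) and Id1 (4.58 to 14.2 CPM per kb) overlapped with their neighbours in that order. By mean level per length over the 6 libraries, Id4 ranked 272, Id2 1640, Id3 3830 and Id1 6244 among 16838 tested genes with an annotated length.

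The order of the lower 3 depended on the pool. In all 4 SF3 and SF4 libraries Id2 was second, and Id3 reached only 0.205 to 0.287 of its level per length. In control SF5_6, Id3 was 1.39 times as high as Id2 per length of annotated exon, and in SmadNes SF5_6 their levels were equal, with a ratio of 1.0. Per length of the longest transcript these ratios were 1.58 and 1.13. Id4 made up 60.0% (control SF5_6) to 72.7% (SmadNes SF4) of all Id transcripts per length. In SF3 and SF4, Id3 made up 5.04% to 5.8% and Id1 3.37% to 3.73%. In SF5_6, Id3 made up 18.2% (control) and 13.0% (SmadNes), and Id1 8.81% and 6.37%. The summed level moved less than its parts, between 134 and 166 CPM per kb.

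**Figure D1:**
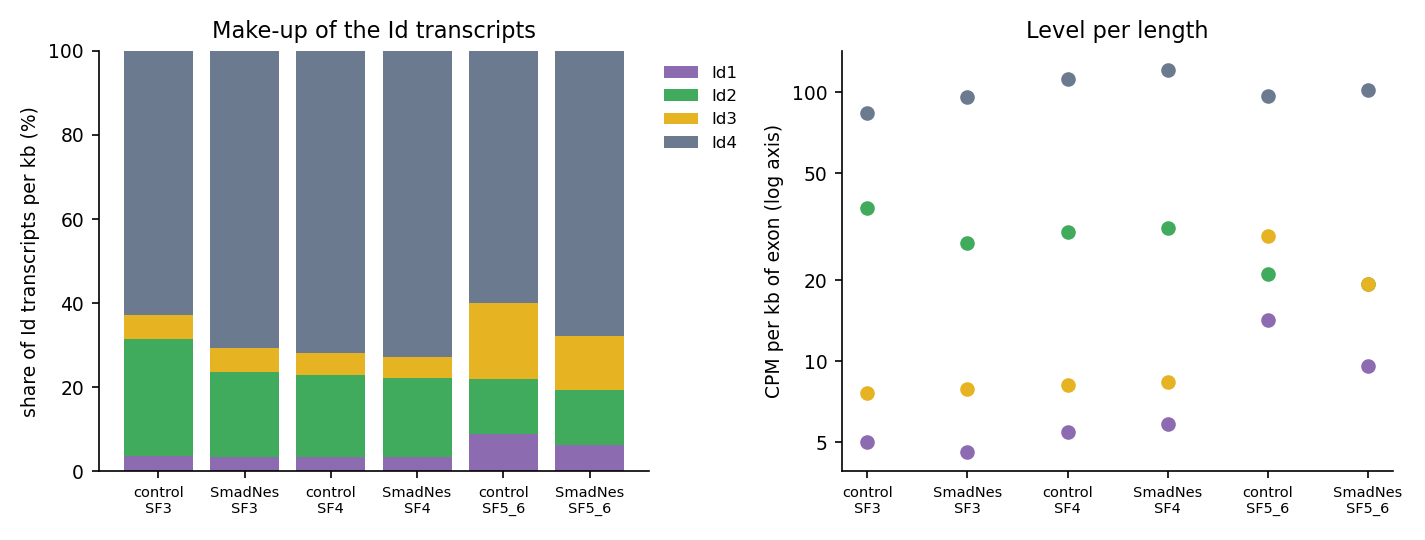
Left, share of each Id gene in the summed Id transcripts (CPM per kb of exon, in percent) in each library; right, the level of each gene per kb on a log axis, 1 point per library. Id4 lies at 83.9 to 121 CPM per kb in every library, while Id3 reaches or passes the level of Id2 in both SF5_6 libraries, and in SmadNes SF5_6 the points of Id2 and Id3 coincide.

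Between the genotypes, no Id gene passed the test. Id1, a classic early target of BMP signals, stood at 5.79, 6.35 and 16.4 CPM in control SF3, SF4 and SF5_6 and at 5.31, 6.80 and 11.1 CPM in the same pools of SmadNes. The 2 genotypes overlapped, and in both the SF5_6 library was the highest. The log2 difference, SmadNes minus control, was -0.30 (SE 0.48, 95% interval -1.45 to 0.85), with an edgeR adjusted p of 1 over all genes.

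Id3, which is often induced together with Id1, stood at 13.6, 14.6 and 52.3 CPM in control SF3, SF4 and SF5_6 and at 14.1, 15 and 34.8 CPM in SmadNes. The genotypes were close to each other in SF3 and SF4, and both SF5_6 libraries stood far above. The log2 difference was -0.33 (SE 0.63, 95% interval -1.85 to 1.19), with an edgeR adjusted p of 1. For both genes the largest gap lay in 1 pair. In SF5_6 the mutant library had 0.675 of the control level of Id1 and 0.666 of that of Id3, against 0.918 and 1.04 in SF3 and 1.07 and 1.03 in SF4. Counting error on the SF5_6 values was smaller than this gap, with 95% Poisson intervals of 15.1 to 17.8 and 10.0 to 12.2 CPM for Id1 and 49.9 to 54.8 and 32.9 to 36.8 CPM for Id3, but 1 pair gives no replicate check. Without the whole SF5_6 pair, the blocked log2 differences were -0.0098 for Id1 and 0.048 for Id3. Leaving out 1 library of that pair keeps the high pool in 1 genotype only. Without control SF5_6 the differences were 0.34 for Id1 and 0.59 for Id3, and without SmadNes SF5_6 they were -0.65 and -0.88.

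Beside these lower values in SmadNes SF5_6, summed markers of the cortical hem and choroid plexus stood at 519 against 712 CPM in the control of that pool. Within that sum the choroid plexus gene Ttr had the widest gap, at 102 against 210 CPM. The other listed genes were lower too by smaller amounts, such as Rspo3 at 138 against 163 CPM. Those of the ventral telencephalon stood at 144 against 202 CPM, those of erythroid cells at 655 against 1110 CPM and those of the mesenchyme at 1330 against 1070 CPM. Sums of the endothelium (25.5 against 26.3 CPM), neurons (3590 against 3600) and radial glia (1970 against 1910) were close to level. Microglia stood at 69.9 against 64.3, Cajal-Retzius cells at 845 against 762 and surface ectoderm at 8.97 against 11.5 CPM. In SF3 and SF4 the ventral sum was lower in SmadNes too, at 25.9 against 77.9 and 21.7 against 32.5 CPM. Hem and choroid plexus sums were higher in SmadNes there, at 417 against 339 and 455 against 431 CPM. Erythroid sums stood at 357 against 376 and 123 against 116 CPM, and mesenchymal sums at 909 against 653 and 291 against 462 CPM. The part of any of these cell types in the SF5_6 difference of Id1 and Id3 was not tested.

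Id2 stood at 90.7, 73.7 and 51.1 CPM in control SF3, SF4 and SF5_6 and at 67.1, 76.1 and 47.3 CPM in SmadNes. The genotypes overlapped, and the largest gap lay in the SF3 pair. The log2 difference was -0.18 (SE 0.25, 95% interval -0.78 to 0.43), with an edgeR adjusted p of 1, and it was 0.024 without the control SF3 library. Id4 stood at 323, 429 and 371 CPM in control SF3, SF4 and SF5_6 and at 370, 466 and 391 CPM in SmadNes. It was higher in SmadNes in all 3 pairs, by 1.15, 1.09 and 1.05 times, yet the genotypes overlapped because the pools differed by more. The log2 difference was 0.13 (SE 0.13, 95% interval -0.19 to 0.44), with an edgeR adjusted p of 1.

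EdgeR called 0 of the 4 Id genes, where it called 0% of all tested genes. Before adjustment 177 of the 16869 genes, and no Id gene, had an edgeR p under 0.05 in this fit, which counts differences between pools as spread. With the pool name as a replicate block, it again called 0 of 4, against 0.0237% of all genes. Before adjustment 1051 genes had an edgeR p under 0.05 with the block, and of the Id genes only Id4 did. The blocked log2 differences were -0.22 (95% interval -0.52 to 0.07) for Id1, -0.17 (-0.35 to 0.01) for Id2, -0.20 (-0.47 to 0.07) for Id3 and 0.13 (0.05 to 0.21) for Id4. Id4 had an unadjusted p of 0.0066 in that edgeR fit and an adjusted p of 0.53 over all genes. DESeq2 called 7 genes without and 14 with the block, and no Id gene. Libraries of the 2 genotypes did not overlap for 4.77% of all tested genes and for 0 of 4 Id genes, and 13.8% of all genes were higher in SmadNes in all 3 pairs, as Id4 was. Without the block, the median log2 difference of the 4 Id genes was -0.24, against -0.00038 over all genes. With the block and without the SF5_6 pair, the differences were -0.0098 for Id1, -0.20 for Id2, 0.048 for Id3 and 0.16 for Id4.

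**Figure D2:**
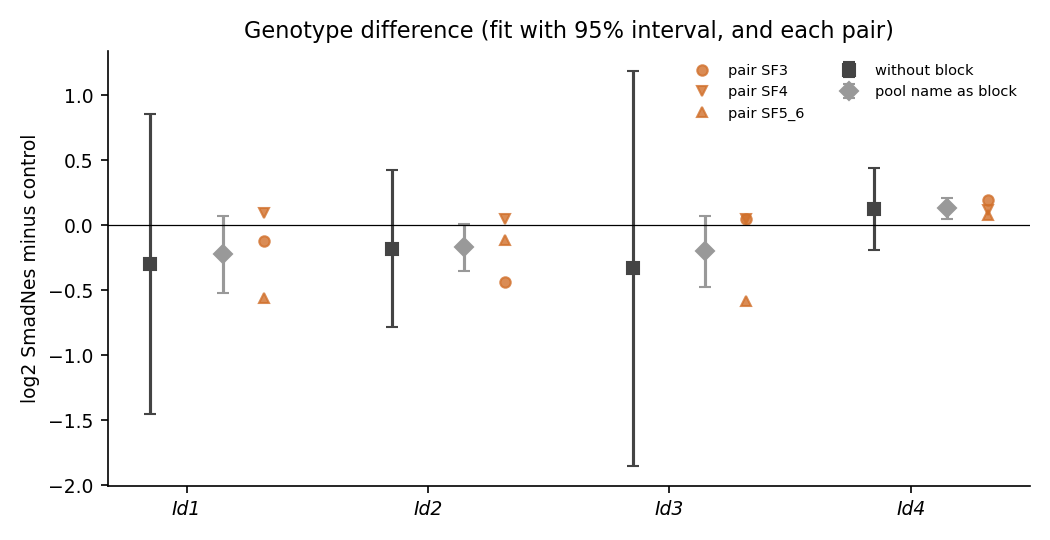
Log2 difference SmadNes minus control for each Id gene: squares, edgeR fit without the block; diamonds, fit with the pool name as a block (both with 95% intervals); orange symbols, the 3 pairs. Only the blocked interval of Id4 (0.05 to 0.21) lies on 1 side of 0, and the SF5_6 pair is the lowest for Id1, Id3 and Id4.

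All 4 Id genes differed between the pools, in 3 patterns. Id1 and Id3 were highest in SF5_6, Id2 was lowest there, and Id4 was highest in SF4. Pool names were compared by edgeR's F test with genotype as the other term. With 2 libraries per name 28.8% of all tested genes passed, so a call by itself does not set a gene apart. Each adjusted p between pools is of this F test over the pools together, also where a log2 difference stands beside it. The exception is 0.0475 for Id4, which is of SF5_6 against SF3 alone. What a pool name stands for beyond the pairing (litter, dissection or sort) is not stated by the labels, and these cannot be told apart.

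Id3 showed the largest pool difference of the 4. Its mean over both genotypes was 13.9 CPM in SF3, 14.8 in SF4 and 43.5 in SF5_6. That is 3.14 times the SF3 level, with a log2 difference of 1.63 (SE 0.15), and an adjusted p of 9.3e-05 by edgeR. Within controls SF5_6 was 3.84 times SF3, and within SmadNes 2.46 times. Only 395 (2.78%) of the 14192 genes whose mean reached 1 CPM had a larger difference between any 2 pools.

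Id1 stood at 5.55, 6.57 and 13.7 CPM in SF3, SF4 and SF5_6. SF5_6 was 2.48 times SF3, with a log2 difference of 1.29 (SE 0.16) and an edgeR adjusted p of 0.00076. It was 2.84 times within controls and 2.09 times within SmadNes, and 4.7% of genes had a larger pool difference. The ratio of Id3 to Id1 per length was 1.43 to 1.72 in the 4 libraries of SF3 and SF4 and 2.06 and 2.03 in SF5_6, so Id3 differed more than Id1.

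Id2 ran the other way, at 78.9, 74.9 and 49.2 CPM in SF3, SF4 and SF5_6. Its log2 difference of SF5_6 from SF3 was -0.67 (SE 0.097), with an edgeR adjusted p of 0.0021. Both SF5_6 libraries, at 51.1 and 47.3 CPM, lay below the other 4. Id4 stood at 346, 448 and 381 CPM in SF3, SF4 and SF5_6. Its SF4 pool was 1.29 times SF3 (log2 difference 0.37, SE 0.045), a smaller step than those of the other members, and 28.0% of genes had a larger one. Over the pools together the edgeR adjusted p of Id4 was 0.0011.

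Without the SF5_6 pair, the differences of SF4 from SF3 were 0.24 for Id1, -0.066 for Id2 and 0.088 for Id3, with edgeR adjusted p of 0.49, 0.769 and 0.769, so the calls of these 3 rest on SF5_6. Without the SF4 pair, the difference of SF5_6 from SF3 for Id4 was 0.13, with an edgeR adjusted p of 0.0917, against 0.14 and 0.0475 for the same contrast with all libraries. Leaving out 1 SF4 library kept the call of Id4, with adjusted p of 0.00375 and 0.0124 by edgeR.

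**Figure D3:**
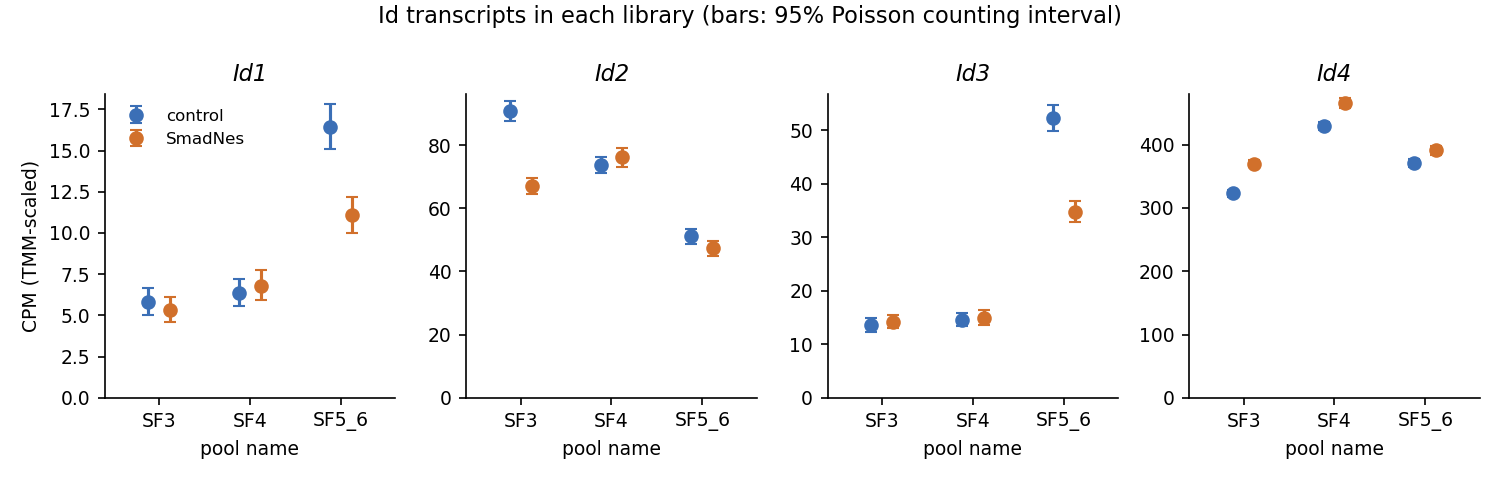
CPM of each Id gene (vertical axes from 0) by pool name, control in blue and SmadNes in orange, 1 point per library with its 95% Poisson counting interval. Id3 stands at 52.3 and 34.8 CPM in SF5_6 against 13.6 to 15 CPM elsewhere, Id1 follows it, Id2 is lowest in SF5_6, and Id4 is highest in SF4.

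**Figure D4:**
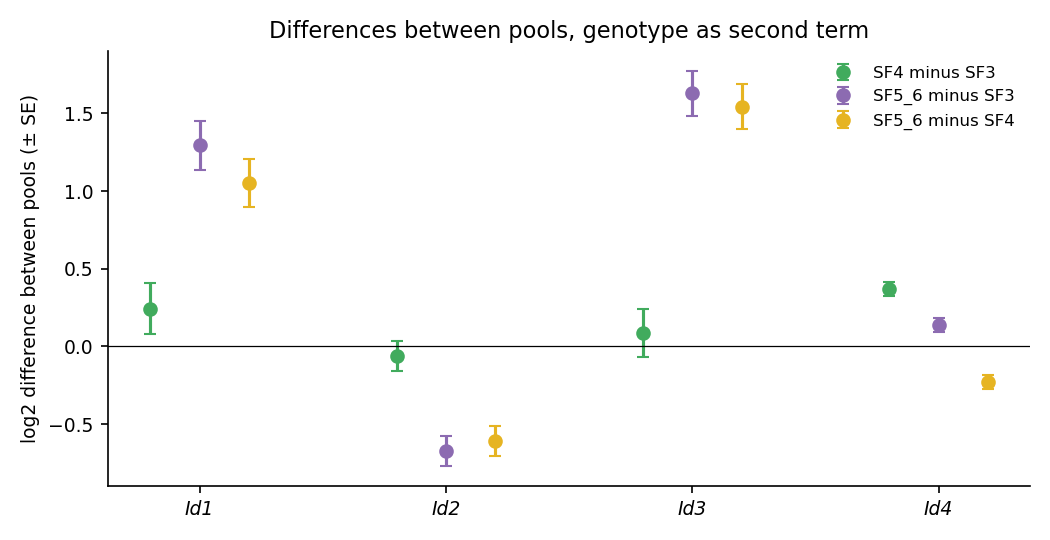
Log2 differences between pools with SE from the edgeR fit with genotype as the second term. For Id1, Id2 and Id3 the differences of SF4 from SF3 are the smallest (0.24, -0.064 and 0.086) and those of SF5_6 reach 1.63 for Id3, while for Id4 the largest is that of SF4 from SF3 (0.37).

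Markers of other cell types and regions also differed between the pools. Genes of the cortical hem and choroid plexus, dorsal midline tissues rich in BMP ligands, summed to 339 to 417 CPM in SF3, 431 to 455 in SF4 and 519 to 712 in SF5_6. Of the 9 tested of 10, 6 differed by edgeR, each highest in SF5_6, against 13.6% of all genes called in that direction, with Rspo3 at 163 and 138 CPM there against 75.1 to 124 CPM elsewhere. Ttr, the choroid plexus transthyretin, did not pass, at 102 to 210 CPM. Gdf7, a roof plate ligand, had no count in 2 libraries and 0.94 CPM at most.

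Ventral telencephalon genes, which mark the source of cortical interneurons, summed to 202 and 144 CPM in SF5_6 against 21.7 to 77.9 CPM elsewhere. Of 9 tested, 8 differed, each highest in SF5_6 (13.6% of all genes), among them Dlx1 (53.8 and 41.4 against 4.64 to 16.9 CPM) and Dlx2 (45.2 and 30.4 against 3.73 to 15.2 CPM). Lhx6, a factor of migrating interneurons, did not pass and had a log2 difference of SF5_6 from SF3 of -0.69. Of the mesenchymal genes 10 of 10 differed, against 28.8% of all genes, and 9 were highest in SF5_6, against 13.6%. They summed to 1070 and 1330 CPM in SF5_6, 653 and 909 in SF3 and 462 and 291 in SF4. Col3a1, a fibrillar collagen, was the most abundant of them, at 437 and 598 CPM in SF5_6, followed by Col1a1 at 237 and 269 CPM.

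Endothelial genes, which mark vessels, summed to 26.3 and 25.5 CPM in SF5_6 and 19.4 to 24.6 CPM elsewhere. Of 7 tested of 9, 2 differed, against 28.8% of all genes. Cdh5, the cadherin of endothelial junctions, had pool means of 3.27, 1.17 and 3.06 CPM in SF3, SF4 and SF5_6, and Pecam1 of 1.06, 0.564 and 1.41 CPM, so both were lowest in SF4. Kdr, the main VEGF receptor, did not pass, at 12.4 to 17.4 CPM. Surface ectoderm genes summed to 11.5 and 8.97 CPM in SF5_6 and 4.63 to 5.36 CPM elsewhere. The 3 tested of 5, Epcam, Krt18 and Krt8, all differed and were highest in SF5_6, against 13.6% of all genes. Krt14 had 0 counts in all libraries.

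Erythroid genes summed to 1110 and 655 CPM in SF5_6, 376 and 357 in SF3 and 116 and 123 in SF4. Of these 9 genes 8 were tested and all 8 differed, against 28.8% of all genes. The embryonic globin Hbb-y alone stood at 475 and 293 CPM in SF5_6 and at 17.1 to 79.4 CPM elsewhere, and Hba-a1 at 269 and 144 against 34.8 to 116 CPM. Of the 8, 6 were highest in SF5_6, against 13.6% of all genes. The adult globin genes Hbb-bs (pool means 73.0, 27.5 and 33.4 CPM in SF3, SF4 and SF5_6) and Hbb-bt (30.6, 10.6 and 25.6 CPM) were highest in SF3. Microglial genes summed to 64.3 and 69.9 CPM in SF5_6, 86.4 and 91.4 in SF3 and 13.5 and 11.5 in SF4, with Csf1r at 4.22 to 37.5 CPM and Cx3cr1 at 1.98 to 16.7 CPM. All 8 differed, against 28.8% of all genes, and their SF5_6 levels lay below those of SF3 in sum. Radial glia genes summed to 1910 and 1970 CPM in SF5_6 and 1560 to 1800 CPM elsewhere, and neuronal genes to 3600 and 3590 against 3760 to 4440 CPM. Of the radial glia genes 5 of 7 differed, against 28.8% of all genes, and 4 of them were highest in SF5_6, against 13.6%. Of the neuronal genes 3 of 5 differed, against the same 28.8%. Dcx and Tbr1 were lowest in SF5_6 (12.6% of all genes) and Stmn2 highest (13.6%), at a pool mean of 158 CPM against 108 in SF4. Of 4 genes of Cajal-Retzius cells, the earliest cortical neurons, all differed, against 28.8% of all genes. They summed to 762 and 845 CPM in SF5_6 against 927 to 1320 CPM. That sum followed Reln, the most abundant, which was lowest in SF5_6, while the other members, Trp73, Lhx5 and Calb2, were highest there. The part of any of these cell types in the Id values was not tested.

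Of the 3 E proteins, the partners that Id proteins bind, 1 differed between the pools, against 28.8% of all genes. Tcf4, the most abundant, stood at 1450, 1500 and 950 CPM in control SF3, SF4 and SF5_6 and at 1460, 1620 and 968 CPM in SmadNes. Both SF5_6 libraries were the lowest, with a log2 difference from SF3 of -0.60 and an edgeR adjusted p of 3.1e-05. Tcf3 (284 to 335 CPM, edgeR adjusted p 0.0593) and Tcf12 (325 to 343 CPM, 0.603) did not pass. Of the 3, 0 were called between the genotypes. Summed per length, Id transcripts stood at 0.903 to 1.02 of E protein transcripts in SF3 and SF4 and at 1.21 and 1.17 in SF5_6. Per length of the longest transcript the ratios were lower, at 0.447 to 0.498 and at 0.659 and 0.616. These are ratios of RNA, and say nothing of protein.

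The tissue-specific bHLH factors that pair with E proteins differed widely between pools. Of 15 genes, 12 were tested and 11 passed, of which 8 were lowest in SF5_6 and 3 highest, against 12.6% and 13.6% of all genes. Neurod6, a factor of young projection neurons, stood at 672, 537 and 211 CPM in control SF3, SF4 and SF5_6 and at 552, 557 and 227 CPM in SmadNes. Neurod2, its close relative, stood at 593, 505 and 232 and at 501, 493 and 219 CPM. Neurog2, which drives cortical neurogenesis, stood at 322, 320 and 220 and at 318, 348 and 211 CPM.

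Neurog1 (25.4 to 35.8 CPM), Neurod1 (103 to 170), Neurod4 (12 to 19.7), Nhlh1 (159 to 206) and Bhlhe22 (76.2 to 156 CPM) were also lowest in SF5_6. Id2 thus moved with the 8 genes lowest in SF5_6, and Id1 and Id3 against them. The 3 called genes highest in SF5_6, as Id1 and Id3 were, were Nhlh2 (159 and 157 against 111 to 144 CPM) and the ventral progenitor factors Olig2 (9.02 and 7.68 against 1.43 to 2.52 CPM) and Olig1. No member was called between the genotypes, with a median log2 difference of -0.033.

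Among the Hes and Hey genes, Hes1 and Hes5 are repressors driven by Notch that act as brakes on neurogenesis. The same is not said here of every listed member. Of 6 genes, 0 were called between the genotypes and 5 between the pools, the latter against 28.8% of all genes. By pool mean, Hes1 (24 to 34.0 CPM), Hes5 (28.3 to 40.8 CPM) and Heyl (0.91 to 3.38 CPM) were highest in SF5_6, against 13.6% of all genes. Hes6, at 118 to 146 CPM, was lowest there, against 12.6%. Hey2 was highest in SF4, at 12.6 and 17.2 CPM, where Id4 was also highest. Hey1, at 75.7 to 89.9 CPM, did not pass. Heyl had the widest pool difference of the list, with SF5_6 above SF4 by 1.57 (SE 0.232) on the log2 scale, where Id3 had 1.54, and above SF3 by 0.42, where Id3 had 1.63.

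Among BMP receptors and Smad transducers, 0 of 10 were called between the genotypes. With the replicate block only Smad5 was called, as higher in SmadNes (edgeR adjusted p 0.00757), against 0.0237% of all genes called. Smad1 was also higher in SmadNes in each pair and was not called (edgeR adjusted p 0.257). Bmpr2, the type II receptor, stood at 283 to 328 CPM, and Smad4, the shared Smad partner, at 164 to 195 CPM. Between the pools 4 of 10 passed, against 28.8% of all genes, 2 of them highest and 2 lowest in SF5_6. By pool mean, Bmpr1a (151 to 177 CPM) and Smad9 (1.48 to 4.55 CPM) were highest there, and Acvr1 (27.3 to 37.8 CPM) and Smad4 lowest. Within SmadNes, Smad9 stood at 2.94 CPM in SF5_6 and 3.09 in SF4. Bmpr1a in SF5_6 lay only 0.052 (SE 0.046) above SF4 on the log2 scale. The floxed Smad1 and Smad5 did not pass between pools, with log2 differences of SF5_6 from SF3 of 0.022 and -0.034.

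BMP target and feedback genes other than the Id genes partly shared the pattern of Id1 and Id3. Of 9 tested, 0 were called between the genotypes, and 5 between the pools, all highest in SF5_6 by pool mean, against 13.6% of all genes. Their median log2 difference of SF5_6 from SF3 was 0.74, against 0.0028 over all genes. Msx2, a homeobox gene of the dorsal midline, had pool means of 2.72, 4.12 and 10.9 CPM in SF3, SF4 and SF5_6. Its relative Msx1 stood at 14.6, 16.2 and 34.9 CPM in control SF3, SF4 and SF5_6 and at 19.0, 15.2 and 30.6 CPM in SmadNes. Both were higher in each SF5_6 library than in any other.

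Smad9, counted among the transducers too, was the other called gene with Bambi and Atoh8, though within SmadNes it was not highest in SF5_6. Bambi, a decoy receptor, stood at 4.99 and 4.39 CPM in SF5_6 against 2.13 to 2.83 CPM elsewhere, and Atoh8 at 7.34 and 5.14 against 3.44 to 4.46 CPM. The inhibitory Smad7 (15.8 to 21.2 CPM, edgeR adjusted p 0.136) and the ubiquitin ligase Smurf1 (66.3 to 75.3 CPM, 0.207) did not pass. Msx1 and Msx2 are themselves genes of the hem, so the hem marker values above stand beside these as well.

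**Figure D5:**
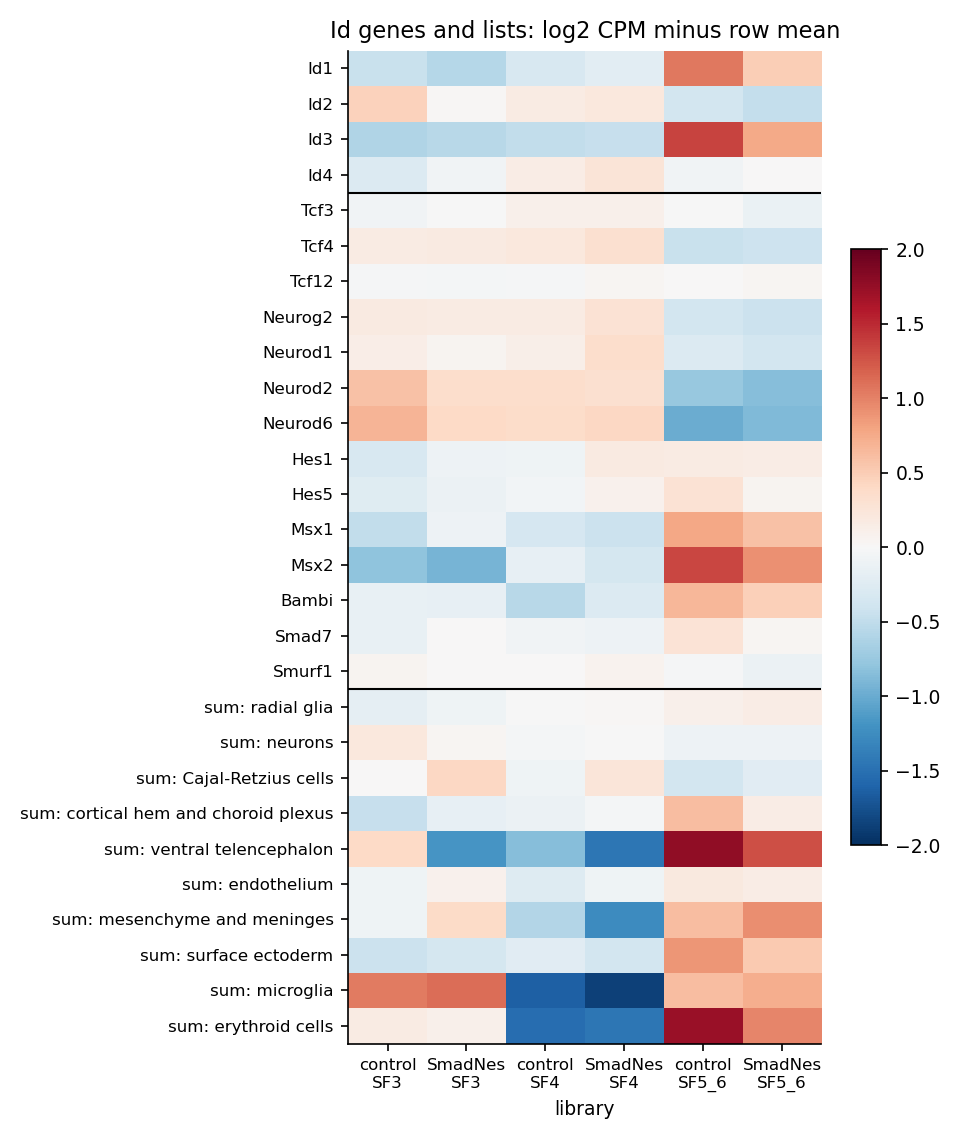
Log2 CPM minus the row mean in each library for the Id genes (top), E proteins, bHLH activators, Hes genes and BMP targets (middle) and summed marker lists (bottom); colours end at 2 either way. Id1, Id3, Msx1 and Msx2 are high in both SF5_6 libraries together with the sums of ventral telencephalon, hem, surface ectoderm, mesenchymal and erythroid genes, while Id2, Tcf4, Neurod2 and Neurod6 are low there.

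Genes that act on Id protein stability, and cell cycle genes linked to Id proteins, were the last lists examined. Of Usp1, which removes ubiquitin from Id proteins, its cofactor Wdr48, and the ubiquitin ligase genes Fzr1 and Smurf2, 0 of 4 were called between the genotypes. Usp1 differed between the pools and was highest in SF5_6, at 167 and 182 against 136 to 166 CPM (log2 difference 0.30 from SF3, edgeR adjusted p 0.00275). Of the retinoblastoma family, which Id2 binds, and the CDK inhibitors, 6 of 8 were tested and 0 called between the genotypes. Between the pools 5 passed, against 28.8% of all genes. Cdkn1a (35.6 to 67.4 CPM) and Rbl1 (49.6 to 67.1) were highest in SF5_6, against 13.6% of all genes. Cdkn1b (137 to 206), Cdkn1c (151 to 205) and Rb1 (127 to 156 CPM) were lowest there, against 12.6%.

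The genes nearest to each Id gene in their pattern over the 6 libraries were found by the root mean square difference of centred log2 CPM among the 14191 other genes whose mean reached 1 CPM. Nearest to Id1 was Wnt9a, which encodes a Wnt ligand (0.093), followed by Tox2 (0.115) and Stx3 (0.119). Wnt9a stood at 28.6 and 19.5 CPM in SF5_6 against 9.63 to 14.3 CPM elsewhere, and was the only gene within 0.1 of Id1. Nearest to Id3 were Lrp2 (0.102), Peg10 (0.13) and Tex15 (0.15), and no gene lay within 0.1. Lrp2, which encodes the endocytic receptor megalin, stood at 38.4 and 29.7 CPM in SF5_6, above the other 4 libraries, of which the lowest was at 11.1 CPM. Id3 was the 77th nearest gene to Id1, and Id1 the 31st nearest to Id3 (0.213).

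Nearest to Id2 were Cacna1d, which encodes a calcium channel (0.039), and the transcription factor genes Pou6f1 (0.053) and Prdm8 (0.056). Prdm8 stood at 108, 87.4 and 58.4 CPM in control SF3, SF4 and SF5_6 and at 86.7, 88.8 and 55.6 CPM in SmadNes, so it shared with Id2 both the low SF5_6 libraries and the higher value in control SF3. Nearest to Id4 were Vcam1, which encodes a cell adhesion protein (0.023), Lrtm2 (0.039) and Ptgfrn (0.040). Vcam1 stood at 35.0, 44.2 and 38.7 CPM in control SF3, SF4 and SF5_6 and at 38.7, 49.5 and 40.8 CPM in SmadNes. Within 0.1 lay 55 genes for Id2 and 128 for Id4, whose smaller spread over the libraries is easier to match. Id1 and Id3 were far from Id2, at 0.867 and 1.06. With 6 libraries that are paired, these are descriptions of likeness.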

How the data were processed

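Gene counts of 6 libraries, 3 control and 3 SmadNes, were analysed. Per the labels' protocols, libraries were made with a stranded mRNA kit, the authors mapped reads to GRCm38 with STAR 2.5.3a and estimated expected counts with RSEM 1.3.0 on GENCODE M15, and the deposited counts are whole numbers without scaling. The step from isoforms to genes is not described there. The submitters' processing notes also name DESeq2 1.18.

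Counts were tested with edgeR 4.0.16 in R 4.3.3 (quasi-likelihood F test, TMM, filterByExpr, Benjamini-Hochberg adjusted p below 0.05 over 16869 genes), with genotype as the term, and between pools with pool name and genotype as terms. Alternatives used limma 3.58.1 and DESeq2 1.42.0, other scalings, no filter and left-out libraries. Fits were tested on simulated data. Deviations from the group means correlated at 0.493, 0.697 and 0.724 between libraries of 1 pool name and below 0 otherwise, and the labels speak of pairs, so the names pair the samples. Libraries of 1 genotype differed beyond sampling noise (chi-square per degree of freedom 10.6 to 43.9). P-values of the genotype test without the block measure the spread between pools of 1 genotype. With the block, and in the test between pools, they measure only the spread left within pool names after the genotype term. No pool name was itself repeated, so the pool test has no measure of the spread between repeats of a pool. At most 0.091 CPM corresponds to 3 counts, and counting intervals cover counting error only. Exon lengths are from GENCODE M21 (GRCm38, 52489 genes matched).

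Members and gene lists were chosen with earlier results of these data known. Named were the Id genes, Smad1, Smad5, Prom1, all E proteins, the 3 most abundant and all called members of other pathway lists, the 2 most abundant markers of each cell type and the 3 genes most like each Id gene. Krt8, Krt14, Gdf7, Fzr1, Lhx6, Pecam1, Hbb-bs, Hbb-bt, Tbr1, Stmn2, Lhx5 and Calb2 fall outside this rule and were named after their values were seen.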

Additional observations from a re-analysis of the deposited data

How the results depend on the processing

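Between the genotypes no Id gene was called under any alternative run, with adjusted p of at least 0.233. Directions turned in 4 cases. Id2 was at 0.024 without the control SF3 library, Id1 at 0.34 and Id3 at 0.59 without the control SF5_6 library, and Id3 at 0.048 with the replicate block and without the SF5_6 pair. Leaving out each library in turn gave -0.65 to 0.34 for Id1, -0.38 to 0.024 for Id2, -0.88 to 0.59 for Id3 and 0.022 to 0.23 for Id4. The number of genes called over the whole table was 0 in the main test and in each fit with 1 library left out, 4 with the replicate block, 1 with limma-voom, 7 with DESeq2 and 14 with DESeq2 and the block, the last an alternative chosen after seeing the data. With the block it was 10 without the SF3 pair, 48 without the SF4 pair and 149 without the SF5_6 pair, and the cause was not tested.

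Between the pools, 4864 genes were called, against 3161 with DESeq2 and 1250 without the SF5_6 pair, and the cause was not tested. All 4 Id genes were called under each alternative except the fits without the SF5_6 pair (Id1, Id2 and Id3) or without the SF4 pair (Id4). With each library left out in turn, SF5_6 minus SF3 was 1.01 to 1.56 for Id1, -0.87 to -0.47 for Id2 and 1.30 to 1.94 for Id3. The share of Id4 among Id transcripts per length averaged 67.6% by exon union and 62.7% by longest transcript, and 10 of the 12 nearest genes were the same at a minimum mean of 5 CPM.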
